A study of Mus musculus with 8 samples.

Results

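The p53 family and its direct regulators were followed in whole CD-1 mouse embryos on gestational day 9, 3 h after their dams had received hydroxyurea or saline. The members were 10 genes: the family genes Trp53, Trp63 and Trp73, and the regulator genes Mdm2, Mdm4, Ppm1d, Usp7, Rchy1, Ppp1r13l and Hipk2. All probes of the array whose RefSeq accession belongs to these symbols were taken, which gave 16 probes of 55681, for 10 genes of the 20141 that could be named. The hydroxyurea group comprised 4 samples from dams given 400 mg/kg by intraperitoneal injection, and the saline group 4 samples from dams given saline. CD-1 is an outbred stock, and hydroxyurea blocks ribonucleotide reductase, the enzyme that supplies deoxyribonucleotides for DNA synthesis. The labels do not say whether each sample came from its own litter or how many embryos it held, so p-values measure the spread between these samples, which may be technical.

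p53 is a transcription factor that is made continuously and destroyed continuously, so that its activity is set largely by the stability and modification of the protein. DNA damage and stalled replication activate kinases that modify p53 and free it from MDM2, and p53 then activates genes of arrest, repair and cell death, among them genes of its own inhibitors. p63 and p73 share the DNA-binding domain of p53, and both genes have an inner promoter that yields shorter proteins without the full activation domain. Loss of p63 in mice stops the formation of stratified epithelium and limbs, and loss of p73 disturbs the development of the nervous system.

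RNA was measured on 1-colour Agilent arrays, and each value below is the log2 processed signal minus the 75th percentile of its array. A value of 0 is therefore the 75th percentile, and levels can be compared between arrays for one probe but not between probes. Of the spots on an array, 48.7% to 57.4% were well above background in the hydroxyurea group and 53.6% to 62.3% in the saline group. Both groups were split evenly over 2 slides, 2 and 2 per slide, and the slides were scanned at different resolutions. Of the 16 probes, 14 were well above background on all 8 arrays and were tested. The other 2, both for Trp73, did not reach the minimum of 4 arrays.

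Markers of the tissue were present in both groups. The mean log2 level of 6 primitive erythroid markers was 4.85 to 5.40 in hydroxyurea, against 4.93 to 5.42 in saline, and that of 7 early neuron markers -0.23 to 0.25, against -0.25 to 0.68, with 0 called by limma in either list and 2 and 1 at an unadjusted p under 0.05. For 9 yolk sac endoderm markers it was -1.28 to 1.52 in hydroxyurea, against -0.67 to 3.30 in saline, with 0 called, 0 at an unadjusted p under 0.05 and all 9 differences below 0 (median -0.77). Saline 2 was the highest array for all 9. The mean of the list was 3.30 there, against -0.67, 0.79 and 1.09 on saline 1, 3 and 4. On hydroxyurea 1 to 4 it was 1.52, 0.67, -1.28 and -0.05. In RNA of whole embryos, fewer cells of a type and less RNA per cell cannot be told apart. Markers of trophoblast and decidua, the placental and maternal tissues next to the embryo, were not even between arrays. The mean log2 level of the 7 measured of 9 such markers was -0.48, 1.25, 1.45 and -0.83 on hydroxyurea arrays 1 to 4, against a range of -1.17 to -0.50 on the saline arrays, and 1 of the 7, Ascl2, was called higher (0.91, limma adjusted p = 0.029). That call was lost without any 1 array except hydroxyurea 2 and 3 (adjusted p between 0.0608 and 0.0914). Prl8a2, a prolactin gene of the decidua that was picked after its values were seen and was not called, stood at 2.40 on hydroxyurea 2 and 6.03 on hydroxyurea 3, against -4.45 and -6.84 on hydroxyurea 1 and 4 and at most -2.03 on the saline arrays. Prl3d1 split the same way, at 2.40 and 1.43 on hydroxyurea 2 and 3, against -3.29 and -3.91 on hydroxyurea 1 and 4. The list was not raised as a whole. Ascl2 stood lower on hydroxyurea 2 and 3 (-1.40 and -1.35) than on hydroxyurea 1 and 4 (-0.65 and -1.03). Gcm1 did too, at 3.92 and 2.60, against 4.56 and 5.14. Prl3b1 stayed within the saline range on hydroxyurea 2 and 3 (0.07 and 0.33). It was nevertheless higher there than on hydroxyurea 1 and 4 (-0.35 and -0.38), the direction of Prl8a2 and Prl3d1. Dcn and Prf1 did not split by these arrays. Of the 14 tested member probes, 7 had hydroxyurea 2 and 6 had hydroxyurea 3 as the hydroxyurea array nearest to the saline mean in the direction of the group difference, where the shares over all probes with 8 values were 48.7% and 23.5%. The part of trophoblast or decidua RNA in the differences below was not tested. For the members, results are given with and without these arrays where a call changed.

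The promoter windows of members with RefSeq entries were searched for the p53 half-site consensus, a motif of 10 bases that is its own reverse complement, with no mismatch allowed. p53 binds DNA as a tetramer, on a pair of such half-sites. Windows of 300 bases, 250 before and 50 after an annotated start, were found for 9 of the 10 genes, 13 windows in all, and Trp63 had none. A half-site match stood in 4 of the 13 windows, against 8.36% of 32851 mouse windows, and a pair of half-sites with at most 13 bases between them stood in 0 of the 13, against 0.0731% of all windows. The windows below, from RefSeq on GRCm38.p6 and written 5′ to 3′ in the gene's direction, are those with a match and that of Ppp1r13l, the member with the largest rise, which had none. Capitals mark the half-site.
Trp53, chr11:69580109-69580408, plus strand: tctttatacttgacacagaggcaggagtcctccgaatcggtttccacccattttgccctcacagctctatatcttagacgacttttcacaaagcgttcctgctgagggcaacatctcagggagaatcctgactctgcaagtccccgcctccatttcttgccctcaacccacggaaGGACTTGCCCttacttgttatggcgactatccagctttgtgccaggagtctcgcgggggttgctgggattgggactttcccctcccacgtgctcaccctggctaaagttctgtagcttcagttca
Mdm2, chr10:117710709-117711008, minus strand: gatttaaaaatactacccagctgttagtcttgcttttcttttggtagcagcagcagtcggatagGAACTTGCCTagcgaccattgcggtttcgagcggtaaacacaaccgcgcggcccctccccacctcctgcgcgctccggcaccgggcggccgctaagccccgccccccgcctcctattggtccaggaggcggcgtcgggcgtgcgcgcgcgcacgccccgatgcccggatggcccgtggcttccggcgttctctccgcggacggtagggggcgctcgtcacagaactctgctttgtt
Ppm1d, chr11:85311004-85311303, plus strand: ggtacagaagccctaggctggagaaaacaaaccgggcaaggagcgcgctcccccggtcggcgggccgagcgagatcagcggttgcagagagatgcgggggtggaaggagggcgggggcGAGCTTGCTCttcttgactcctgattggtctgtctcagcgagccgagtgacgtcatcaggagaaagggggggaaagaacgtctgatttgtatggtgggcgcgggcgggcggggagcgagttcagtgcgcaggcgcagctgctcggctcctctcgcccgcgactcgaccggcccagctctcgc
Rchy1, chr5:91962507-91962806, minus strand: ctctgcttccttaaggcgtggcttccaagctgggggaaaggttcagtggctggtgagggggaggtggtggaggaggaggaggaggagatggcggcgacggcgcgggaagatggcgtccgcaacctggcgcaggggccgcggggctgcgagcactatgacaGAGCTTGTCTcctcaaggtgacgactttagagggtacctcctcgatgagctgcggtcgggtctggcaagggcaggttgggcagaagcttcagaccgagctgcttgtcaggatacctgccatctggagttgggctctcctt
Ppp1r13l, chr7:19360966-19361265, plus strand: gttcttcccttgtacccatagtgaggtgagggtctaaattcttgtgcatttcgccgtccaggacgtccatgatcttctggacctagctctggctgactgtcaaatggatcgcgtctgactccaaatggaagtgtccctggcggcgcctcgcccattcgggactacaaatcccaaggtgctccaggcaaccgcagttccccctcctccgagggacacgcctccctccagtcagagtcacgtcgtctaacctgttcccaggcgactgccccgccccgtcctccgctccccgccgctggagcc
In Trp53 the match GGACTTGCCC began 75 bases before the annotated start, in Mdm2 GAACTTGCCT began 186 before, in Ppm1d GAGCTTGCTC 132 before, and in Rchy1 GAGCTTGTCT 90 before the downstream one of its 2 starts. A match describes letters in this window only, and sites elsewhere in a gene, such as in its first intron, were not searched.

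The comparison asked which of these transcripts differed between hydroxyurea and saline embryos. Ppp1r13l and Rchy1 rose, 2.01-fold and 1.47-fold, and both code for proteins that restrain p53. Trp53, Mdm2, Ppm1d and the measured Trp73 probe were displaced by amounts between 0.66 and 0.94 on the log2 scale but did not pass the test, and neither did any probe of Trp63, Mdm4, Usp7 or Hipk2. With limma over 30759 probes and an adjusted p under 0.05 as the call, 2 of the 14 tested member probes were higher and 0 were lower. Over all probes 6.82% were called, 2.52% higher and 4.29% lower. At an unadjusted p under 0.05 there were 4 higher, with Mdm2 and Ppm1d added, and 2 lower, Trp53 and Trp73. Many probes pass this cut: an unadjusted limma p of 0.0492 ranked only 7533 among all 30759 probes. The counts at this cut in the marker and p53 lists have that background too. The hydroxyurea and saline arrays did not overlap for 5 of the 14 probes, 3 higher and 2 lower, against 15.8% of all probes, 7.37% higher and 8.47% lower. The median difference of the 14 was 0.02, as was that of all probes.

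**Figure D1:**
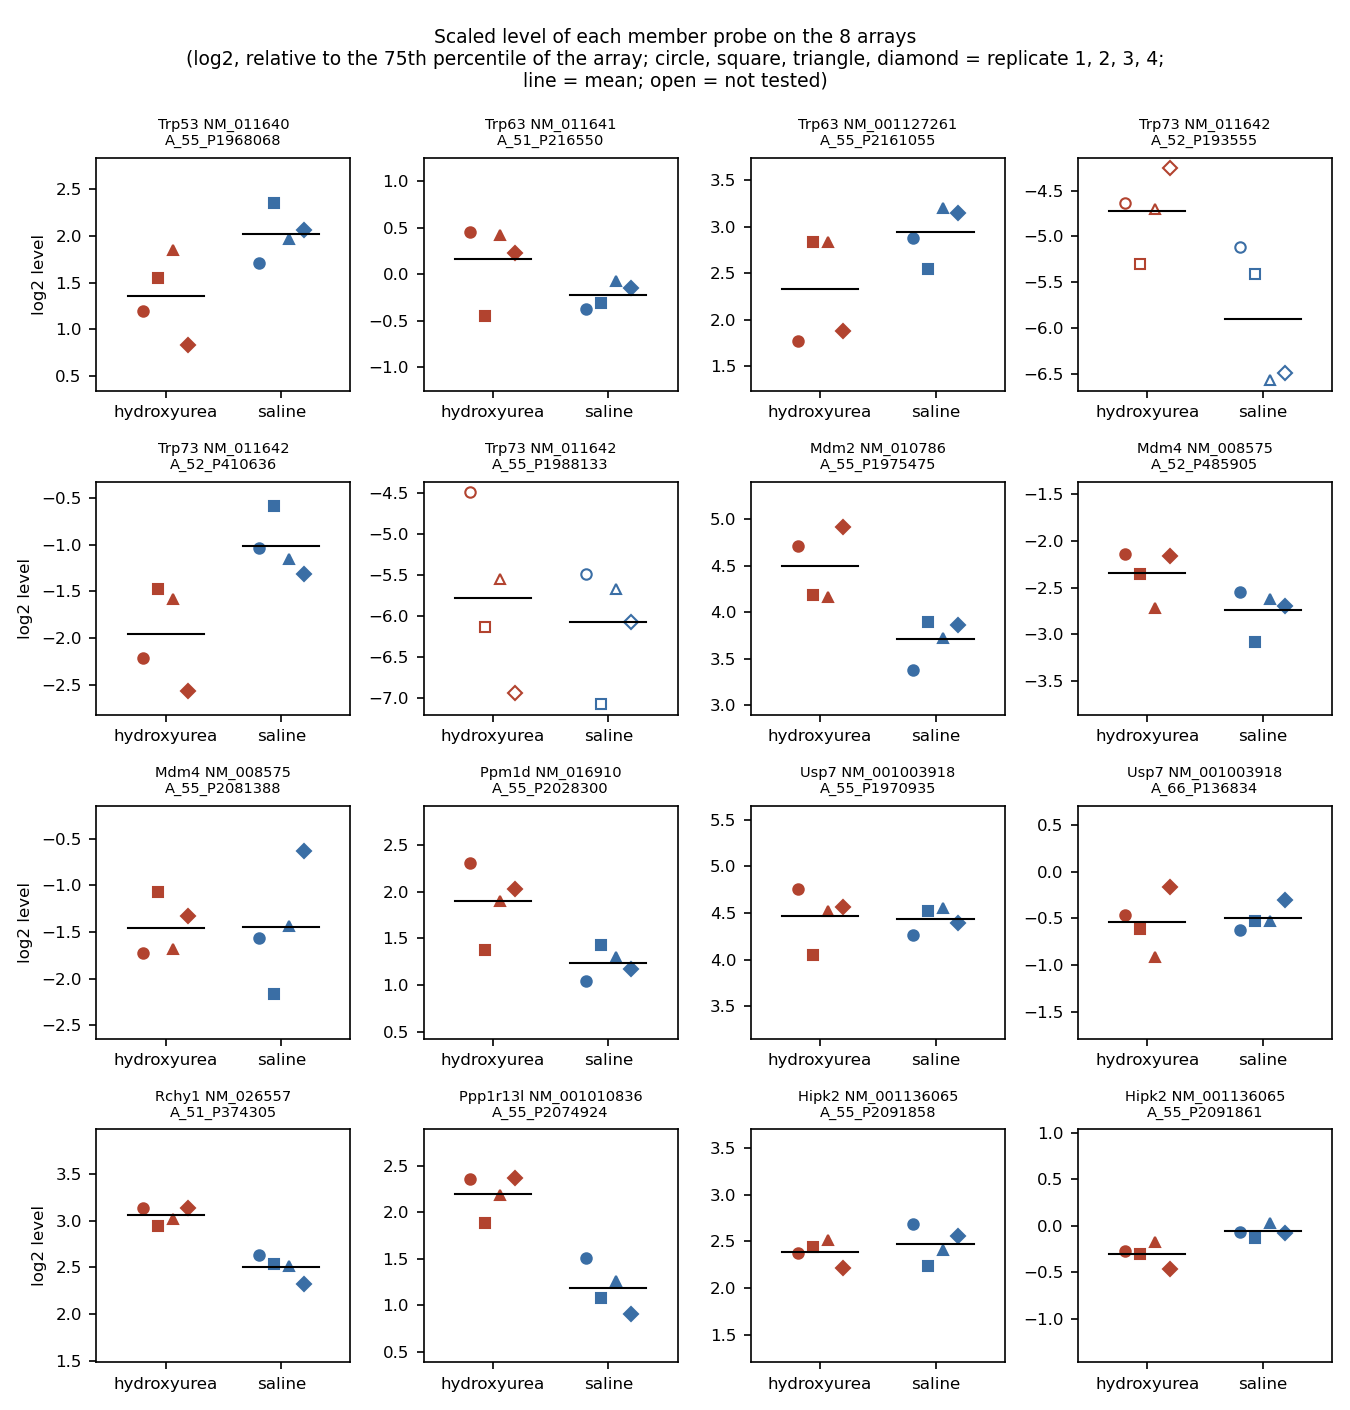
Log2 level, relative to the 75th percentile of the array, of each of the 16 member probes on the 4 hydroxyurea arrays (red) and the 4 saline arrays (blue). Markers are the replicates, lines the group means, and open markers the 2 Trp73 probes that were not tested; the groups stand apart for Ppp1r13l, Rchy1, Mdm2, 1 probe of Hipk2 and the tested Trp73 probe.

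Trp53 (NM_011640), the gene of p53, had levels of 1.19, 1.55, 1.85 and 0.83 on the hydroxyurea arrays, against 1.71, 2.35, 1.96 and 2.06 on the saline arrays. The groups overlapped only through hydroxyurea 3, which lay above saline 1. The difference was -0.67 ± 0.24 (SE, n = 4 per group, 95% interval -1.21 to -0.12, limma adjusted p = 0.132), and within the slides it was -0.66 and -0.67. It was larger, -1.01, and passed (adjusted p = 0.0283) when hydroxyurea 2 and 3 were both left out, an alternative chosen after the data were seen because of the decidual markers.

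Trp63 had 2 probes, annotated to different transcripts, and their differences had opposite signs. The probe for NM_011641 stood at 0.45, -0.45, 0.42 and 0.23 on the hydroxyurea arrays, against -0.37, -0.30, -0.08 and -0.14 on the saline arrays. On hydroxyurea 1, 3 and 4 it was above every saline array, and on hydroxyurea 2 it was below them all. Its difference was 0.39 ± 0.22 (SE, n = 4 per group, limma adjusted p = 0.305), and without hydroxyurea 2 it was 0.59 and passed (adjusted p = 0.0315). The probe for NM_001127261 stood at 1.78, 2.83, 2.84 and 1.88 on the hydroxyurea arrays, against 2.88, 2.54, 3.20 and 3.14 on the saline arrays. Here hydroxyurea 1 and 4 were below every saline array, while hydroxyurea 2 and 3 lay inside their range. Its difference was -0.61 ± 0.29 (limma adjusted p = 0.232), and it passed at -1.11 (adjusted p = 0.0218) without hydroxyurea 2 and 3.

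The first Trp63 probe minus the second, within each array, gave -1.33, -3.28, -2.42 and -1.65 for hydroxyurea, against -3.25, -2.85, -3.28 and -3.29 for saline. The balance of the 2 signals was thus shifted on hydroxyurea 1, 3 and 4, while hydroxyurea 2 lay within the saline range. This contrast was picked after the values were seen and was not tested. The annotation used here does not say which protein forms the 2 probes report. Among 12 markers of the surface ectoderm, the tissue in which Trp63 is mainly expressed at this stage, 2 rose and 0 fell, with a median of 0.11, 5 differences below 0, and 3 higher and 1 lower at an unadjusted p under 0.05. Over named genes with 1 probe each, 3.60% were called higher and 2.01% lower. The mean log2 level of the 12 was 1.18 to 1.55 in hydroxyurea, against 1.07 to 1.43 in saline. The 2, named because they are few, were Grhl3 (0.74, limma adjusted p = 0.0201), a grainyhead factor gene of the surface ectoderm, and Perp (0.83, limma adjusted p = 0.0118), an adhesion gene that is a target of both p53 and p63 and is also counted among the p53 targets below. Dlx3, a homeobox gene of the ectoderm, stood lower on every hydroxyurea array than on any saline array (-0.77, limma adjusted p = 0.0507) and just missed the threshold. Krt5, a keratin gene, missed it in the other direction (0.75, limma adjusted p = 0.0541), with every hydroxyurea array above every saline array. The Grhl3 call was lost without any 1 of 5 arrays (hydroxyurea 1 and 4, saline 1, 3 and 4), with adjusted p between 0.0557 and 0.0723. Their part in the Trp63 differences was not tested.

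Trp73 (NM_011642) was dim. Of its 3 probes, that named A_55_P1988133 was not well above background on any array, and A_52_P193555 was so on 1 hydroxyurea and 1 saline array, so no fold is given for either. The third, A_52_P410636, stood at -2.21, -1.47, -1.58 and -2.57 on the hydroxyurea arrays, against -1.03, -0.58, -1.15 and -1.31 on the saline arrays. Every hydroxyurea array was below every saline array. The difference of -0.94 ± 0.27 (SE, n = 4 per group, 95% interval -1.56 to -0.32) was the most negative among the members and did not pass (limma adjusted p = 0.0749). It passed without hydroxyurea 2 (-1.10, adjusted p = 0.0338). With normexp background correction it was -0.62 (adjusted p = 0.0933).

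Mdm2 (NM_010786), the gene of the ubiquitin ligase that marks p53 for destruction and is itself a p53 target, stood at 4.71, 4.18, 4.17 and 4.91 on the hydroxyurea arrays, against 3.38, 3.89, 3.73 and 3.86 on the saline arrays. All hydroxyurea arrays were above all saline arrays, with hydroxyurea 1 and 4 the furthest. The difference was 0.78 ± 0.22 (SE, n = 4 per group, 1.71-fold, 95% interval 0.29 to 1.27), and it missed the threshold (limma adjusted p = 0.0667). The call depended on the processing: it was made with normexp (0.85, adjusted p = 0.0157), under a filter that asked for signal well above background on every array (adjusted p = 0.0489) and without hydroxyurea 2 (0.88, adjusted p = 0.0355). On slides 1 and 2 the difference was 0.81 and 0.75.

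Ppm1d (NM_016910) encodes the phosphatase WIP1, which removes activating phosphates from p53 and from the damage kinases and is also a p53 target. It stood at 2.30, 1.37, 1.90 and 2.03 on the hydroxyurea arrays, against 1.04, 1.43, 1.30 and 1.17 on the saline arrays. Hydroxyurea 2 alone fell inside the saline range. The difference was 0.66 ± 0.21 (SE, n = 4 per group, limma adjusted p = 0.0951) and without hydroxyurea 2 it was 0.84 and passed (adjusted p = 0.0164).

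Mdm4 (NM_008575), whose product is related to MDM2, pairs with it and covers the activation domain of p53, had 2 probes that did not behave alike. Probe A_52_P485905 stood at -2.14, -2.35, -2.72 and -2.16 in hydroxyurea, against -2.55, -3.09, -2.62 and -2.70 in saline, a difference of 0.40 ± 0.19 (SE, n = 4 per group, limma adjusted p = 0.237). Probe A_55_P2081388 stood at -1.73, -1.07, -1.68 and -1.32 in hydroxyurea, against -1.57, -2.16, -1.44 and -0.63 in saline. The saline arrays alone spread over more than the group difference of -0.0041 ± 0.31 (adjusted p = 0.995), whose sign differed between the slides (0.46 on slide 1, -0.47 on slide 2).

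Rchy1 (NM_026557) encodes PIRH2, a further ubiquitin ligase that acts on p53 and is induced by it. It stood at 3.14, 2.94, 3.02 and 3.14 on the hydroxyurea arrays, against 2.64, 2.53, 2.52 and 2.32 on the saline arrays, with no overlap and the smallest spread within hydroxyurea of the 14 probes (SD 0.0954). It rose by 0.56 ± 0.14 (SE, n = 4 per group, 1.47-fold, limma adjusted p = 0.0463). The call was close to the threshold and was lost without any single array except hydroxyurea 2, with adjusted p between 0.0825 and 0.143. It was also lost in the fit that blocked on slide (adjusted p = 0.0695), with normexp (0.42, adjusted p = 0.146) and with median scaling (adjusted p = 0.0978).

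Ppp1r13l (NM_001010836) encodes iASPP, the inhibitory member of the ASPP proteins, which binds p53 and lowers its activity at genes of cell death. It stood at 2.36, 1.88, 2.19 and 2.37 on the hydroxyurea arrays, against 1.51, 1.08, 1.26 and 0.91 on the saline arrays, with a gap between the groups. It rose by 1.01 ± 0.18 (SE, n = 4 per group, 2.01-fold, 95% interval 0.59 to 1.43, limma adjusted p = 0.0141), the largest change among the tested member probes. The difference was 0.83 on slide 1 and 1.19 on slide 2, and a fit that blocked on slide gave an adjusted p of 0.0273. The call was lost without hydroxyurea 4 (adjusted p = 0.0532) and with no filter on dim probes (adjusted p = 0.0555). It was the one member probe in the authors' deposited table of 1346 probes. In the authors' deposited table its centred log2 values were 0.66, 0.19, 0.48 and 0.67 for hydroxyurea, against -0.19, -0.62, -0.43 and -0.79 for saline.

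Usp7 (NM_001003918), the gene of a deubiquitinase that stabilises both MDM2 and p53, had 2 probes near no difference. Probe A_55_P1970935 stood at 4.76, 4.05, 4.52 and 4.57 in hydroxyurea, against 4.27, 4.52, 4.56 and 4.40 in saline, and probe A_66_P136834 at -0.46, -0.62, -0.91 and -0.17, against -0.62, -0.53, -0.52 and -0.30. The differences were 0.04 (95% interval -0.37 to 0.45) and -0.05 (-0.46 to 0.37), and the sign of each changed with the scaling.

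Hipk2 (NM_001136065), the gene of a kinase that phosphorylates p53 in the course to cell death, also had 2 probes. Probe A_55_P2091858 stood at 2.38, 2.43, 2.52 and 2.22 in hydroxyurea, against 2.69, 2.24, 2.41 and 2.56 in saline, a difference of -0.09 (95% interval -0.43 to 0.26) whose sign turned with median scaling. Probe A_55_P2091861 stood at -0.27, -0.30, -0.17 and -0.46, against -0.06, -0.13, 0.03 and -0.07. These groups did not overlap, but the difference of -0.24 ± 0.13 (SE, n = 4 per group) did not pass (limma adjusted p = 0.302).

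**Figure D2:**
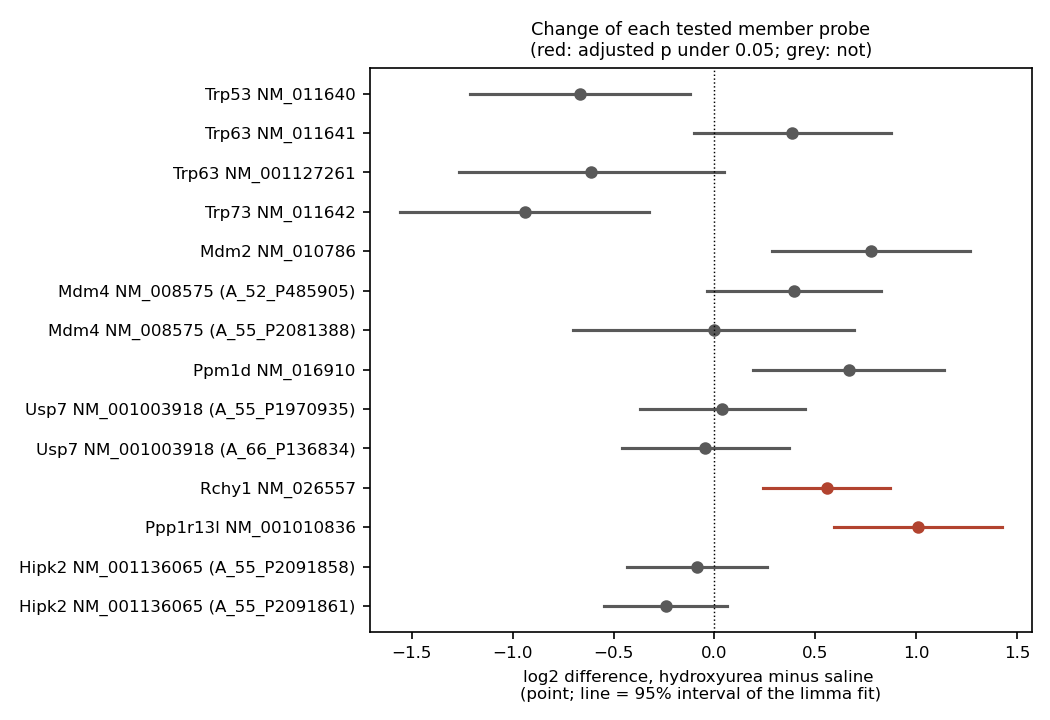
Log2 difference, hydroxyurea minus saline, of the 14 tested member probes with the 95% interval of the limma fit (4 arrays per group). Ppp1r13l (1.01) and Rchy1 (0.56) passed an adjusted p of 0.05 and are red; the intervals of Mdm2, Ppm1d, Trp53 and Trp73 exclude 0 but did not pass after adjustment.

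The genes of p53 and its 2 MDM proteins were also set against each other within each array, which takes the scaling of the arrays out. Mdm2 minus Trp53 was 3.52, 2.63, 2.31 and 4.09 on the hydroxyurea arrays, against 1.67, 1.54, 1.76 and 1.79 on the saline arrays. The groups did not overlap, and the spread within hydroxyurea (SD 0.81) was several times that within saline (SD 0.11). The group difference of 1.44 had p = 0.0286 in a two-sided exact permutation test, the smallest that 4 against 4 arrays allow, and 0.0857 after adjustment over the 3 pairs. Mdm2 minus Mdm4 differed by 0.78 (exact permutation p = 0.114, adjusted 0.171) and Mdm4 minus Trp53 by 0.66 (exact permutation p = 0.257, adjusted 0.257). Mdm4 was represented by probe A_55_P2081388, which has the higher mean of its 2 probes. Its group difference was -0.0041, against 0.40 for probe A_52_P485905. The size of both Mdm4 pairs thus depends on the probe, and the pairs were not run with A_52_P485905. The difference between Mdm2 and Trp53 kept its sign without any 1 array, at 1.13 to 1.72.

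**Figure D3:**
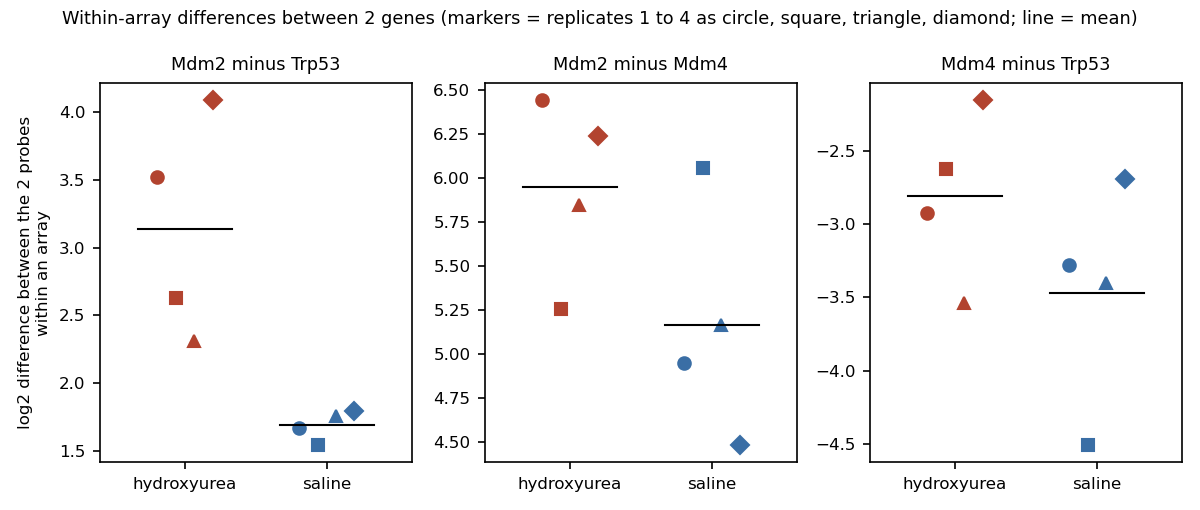
Log2 difference between the probes of 2 genes within each array, for hydroxyurea (red) and saline (blue), with group means as lines. For Mdm2 minus Trp53 all 4 hydroxyurea arrays (2.31 to 4.09) lie above all 4 saline arrays (1.54 to 1.79); the other pairs overlap.

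The genes most like Trp53 over the 8 arrays, by the root mean square difference of mean-centred log2 levels, were Snrnp70 (0.0974), which encodes a protein of the U1 spliceosomal particle, Prss37 (0.121) and Zbtb7b (0.125), a zinc finger factor gene, where the median over 14619 genes was 0.576. Those 3 had differences of -0.58, -0.53 and -0.68 and did not pass with all 8 arrays. Without hydroxyurea 2 and 3 they passed (limma adjusted p = 0.0425, 0.0214 and 0.0146). The genes most like Mdm2 were Ankib1 (0.0801), Rab27b (0.0826), a small GTPase gene of secretion, and Slc35d1 (0.0879), a nucleotide sugar transporter gene, where the median was 0.484. Slc35d1 stood 0.90 higher (limma adjusted p = 0.035). That call was lost without any 1 array except hydroxyurea 2 and 3 (adjusted p between 0.0605 and 0.110). Ankib1 (0.72) and Rab27b (0.72) did not pass, but did without hydroxyurea 2 (limma adjusted p = 0.0294 and 0.0313). All these genes were picked for their likeness over the same 8 arrays. Their differences were thus bound to resemble those of Trp53 and Mdm2, and are given as description only.

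Other genes that act on p53 were measured in full and mostly did not pass. Of 14 p53 kinases 1 was higher, 0 were lower and 13 did not pass, where 3.60% of 14654 named genes were called higher and 2.01% lower. The median of the kinases was 0.17, beside 0.10 over the named genes, and at an unadjusted p under 0.05 there were 4 higher and 2 lower. Atm, the kinase that senses DNA breaks, rose by 0.66 ± 0.14 (SE, n = 4 per group, limma adjusted p = 0.0267). A further Atm probe stood at 0.53, with overlapping groups, and did not pass (limma adjusted p = 0.314). The Atm call was lost without any 1 array except hydroxyurea 2 and saline 1 (adjusted p between 0.0644 and 0.0855) and with median scaling (adjusted p = 0.0616). Of 12 enzymes that add or remove acetyl or methyl groups on p53, 1 was higher and 0 lower (median 0.04), and 2 were higher and 2 lower at an unadjusted p under 0.05. That was Kat2b, the gene of the acetyltransferase PCAF, at 0.64 ± 0.16 (limma adjusted p = 0.0474). Its call was lost in the fit that blocked on slide (adjusted p = 0.0579), with normexp (0.30, adjusted p = 0.295) and without any 1 array except hydroxyurea 2 (adjusted p between 0.0704 and 0.1303). None of 14 other ubiquitin ligases and deubiquitinases (median 0.05), of 10 binding partners (median -0.03) or of 9 genes of ARF and nucleolar regulators of MDM2 (median 0.15) passed with limma, where 3, 3 and 0 had an unadjusted p under 0.05. The lowest p-values there belonged to Cul9 (0.97, limma adjusted p = 0.0944), Hexim1 (0.53, limma adjusted p = 0.0791) and Ncl (0.27, limma adjusted p = 0.458). Cul9 is a cytoplasmic anchor of p53, and its other probe stood at 0.25 (limma adjusted p = 0.729). Hexim1 is an inhibitor of transcription elongation that binds p53, and Ncl is nucleolin. Without hydroxyurea 2, Hexim1 stood at 0.61 and passed (limma adjusted p = 0.0325).

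Most listed targets of p53 were higher. Of 28 targets 20 rose, 0 fell and 8 did not pass, with a median of 1.40, where 3.60% of named genes were called higher and 2.01% lower. Among the 20, Eda2r was well above background on 4 hydroxyurea arrays and 0 saline arrays. Eda2r thus passed the filter on dim probes only through the group where it was high. The list was chosen with earlier results of these data known, so its count is a description. Ccng1, the gene of cyclin G1, rose by 3.20 ± 0.14 (limma adjusted p = 3.63e-05) and Cdkn1a, the gene of the cell cycle inhibitor p21, by 3.02 ± 0.24 (limma adjusted p = 0.00039; SE, n = 4 per group each). The 4 hydroxyurea arrays lay close together for Ccng1, at 3.91, 3.83, 4.06 and 4.18, against 0.79, 0.92, 0.76 and 0.70 in saline. Hydroxyurea 2, which lay near saline for Ppm1d and for the Trp63 probe of NM_011641, thus lay with the other hydroxyurea arrays for Ccng1, and for Cdkn1a it stood at 2.79, against 2.63, 2.05 and 3.08 on hydroxyurea 1, 3 and 4 and -0.75, -0.18, -0.48 and -0.11 in saline.

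**Figure D4:**
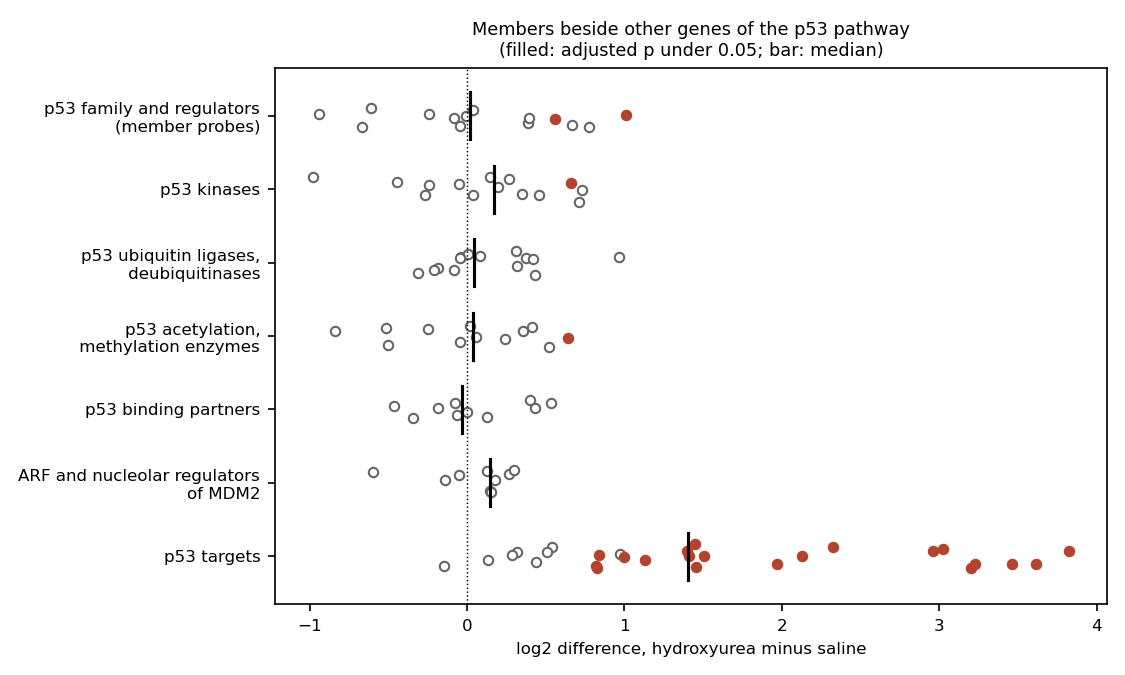
Log2 difference, hydroxyurea minus saline, of the 14 tested member probes and of the genes in 6 other lists of the p53 pathway, with 1 probe per gene in those lists and bars at the medians. Filled points passed an adjusted p of 0.05: 2 of 14 member probes and 20 of 28 p53 targets, with the target median at 1.40 and all other medians between -0.03 and 0.17.

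The array hydroxyurea 2 decided several calls. Without it, 5 member probes were higher and 1 was lower, where 7.20% of all probes were then called higher and 8.61% lower. The 6 were those of Ppp1r13l, Rchy1, Mdm2, Ppm1d and Trp63 (NM_011641) on the higher side and of Trp73 on the lower. With hydroxyurea 2 and 3 both left out, 4 were higher (Ppp1r13l, Rchy1, Mdm2 and Ppm1d) and 3 lower (Trp53, Trp63 by NM_001127261 and Trp73), against 5.88% and 9.47% of all probes. Since these arrays lay nearest to saline for most member probes, their removal widens the differences by construction.

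**Figure D5:**
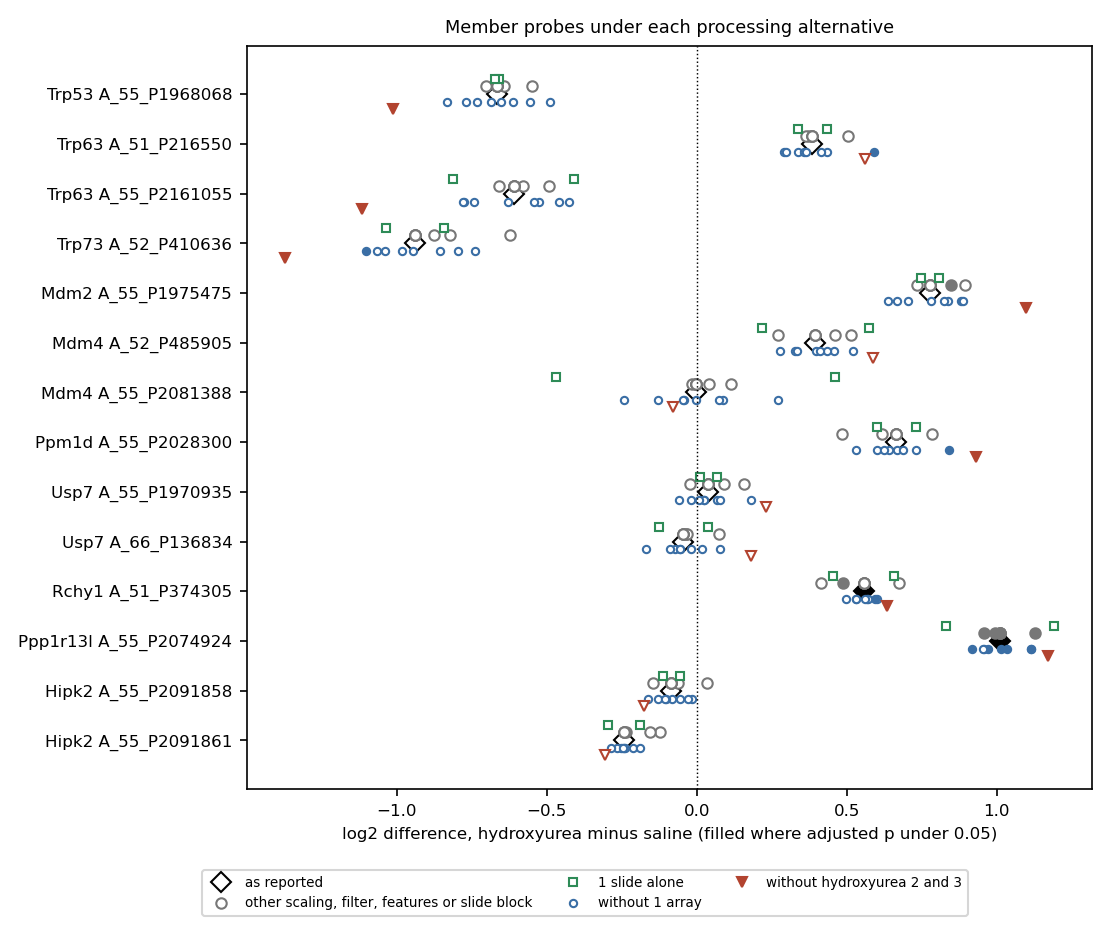
Log2 difference, hydroxyurea minus saline, of each tested member probe as reported (diamond) and under each alternative, filled where the adjusted p was under 0.05. Trp53, both Trp63 probes, Trp73, Mdm2, Ppm1d, Rchy1 and Ppp1r13l kept their sign in the alternatives drawn, while both Usp7 probes, Mdm4 probe A_55_P2081388 and Hipk2 probe A_55_P2091858 crossed 0.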

How the data were processed

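RNA of 8 whole-embryo samples, 4 per group, was hybridised to 1-colour (Cy3) Agilent arrays of 59305 spots besides 3671 control spots. Per the file headers, Agilent Feature Extraction 11.5.1.1 gave the deposited processed signal intensity, background-subtracted and not scaled between arrays. The authors' deposited table of 1346 probes holds log2 values whose median per probe is 0. Its header calls them normalized, but how, and by which test probes were picked, is not given in the sources used here.

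Control spots and 151 to 315 outlier spots per array were dropped. Saturation was recorded for 0 spots. The spots of a probe were averaged, log2 was taken, and the 75th percentile of the array was subtracted. Probes well above background on at least 4 of 8 arrays were kept, which left 30759, of which 82 lacked a value on at least 1 array and none of those was a member probe. Groups were compared with limma 3.58.1 (lmFit and eBayes, R 4.3.3), each probe on its own, with Benjamini-Hochberg adjustment over all kept probes and a threshold of 0.05. Differences within arrays between a pair of genes were compared with an exact permutation test over 70 splits, two-sided. The fit was tested on simulated data. The number of arrays limits the precision.

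Probes were named by accession through a RefSeq table of GRCm38.p6, used for names only, which gave 1 symbol to 26576 probes, several to 0 and none to 29105. Promoter windows came from RefSeq on the same assembly. Named genes were all members with every probe, from each other p53 list the called genes with the lowest p (at most 3) or the 1 with the lowest p where none was called, Cdkn1a and Ccng1 among the targets, and the 3 genes closest in pattern to Trp53 and to Mdm2. Of the marker lists, called genes are named. Eda2r, Dlx3, Krt5, Prl8a2 and the other uncalled trophoblast and decidua genes were named after their values were seen. In the other lists a gene is represented by the probe with the highest mean. The members and all lists were chosen with earlier results of these data known. The alternatives were quantile and median scaling, normexp (offset 50) on the median spot signal in place of the planned mean signal, other filters on dim probes, 1 probe per gene, the slide as a block, each slide alone, and leaving out each array.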

Additional observations from a re-analysis of the deposited data

Results flagged for a closer look

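For Kat2b, 1 saline array lay far from the rest of its group: saline 3 stood at -4.20 on the log2 scale, while the other 3 saline arrays lay between -3.72 and -3.71. The gap was 0.977 of the range of the group, above the 95% critical value of Dixon's test for 4 samples. Chance flags about 1 in 20 such groups.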

How the results depend on the processing

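No paired analysis was possible because the labels give the groups no shared replicate numbers. Trp53, both Trp63 probes, Trp73, Mdm2, Mdm4 probe A_52_P485905, Ppm1d, Rchy1, Ppp1r13l and Hipk2 probe A_55_P2091861 kept their sign in all alternatives run. Ppp1r13l was called in 14 of 18 alternatives and Rchy1 in 5 of 18. Where a call or sign changed, the cause was not tested, except that a slide alone leaves 2 against 2 arrays. Median scaling moved the median of all probes to 0.14, against 0.02 as reported, and gave, with that shift included, 0.67 for Rchy1 (no longer called), 0.11 for Mdm4 probe A_55_P2081388, 0.0731 for Usp7 probe A_66_P136834 and 0.0325 for Hipk2 probe A_55_P2091858, with 1 member probe higher and 0 kinases called. Quantile scaling gave 0.0403 for that Mdm4 probe and -0.0213 for Usp7 probe A_55_P1970935, with 2 kinases, 3 acetylation or methylation enzymes and 1 binding partner called. Normexp gave 0.85 for Mdm2 (called), 0.42 for Rchy1 (not called) and 2 kinases. Without a filter on dim probes Rchy1 (0.56) and Ppp1r13l (1.01) were not called, 278 probes were higher and 633 lower, and 0 member probes, 0 kinases and 0 acetylation or methylation enzymes were called. Asking for signal well above background on every array, Mdm2 (0.78) was called, with 2 kinases and 2 acetylation or methylation enzymes. With 1 probe per gene 786 probes were lower. With the slide as a block Rchy1 (0.56) was not called, 1 member probe was higher and 0 acetylation or methylation enzymes were called. Slide 1 alone gave 0.46 for Rchy1, 0.83 for Ppp1r13l, 0.46 for Mdm4 probe A_55_P2081388 and 0.0357 for Usp7 probe A_66_P136834, with 25 probes higher, 27 lower, 0 members, 0 kinases, 0 acetylation or methylation enzymes and 6 targets called. Slide 2 alone gave 0.66 for Rchy1 and 1.19 for Ppp1r13l, with 0 probes higher, 3 lower, and 0 called among members, kinases, acetylation or methylation enzymes and targets. Without hydroxyurea 2 and 3 the calls included Trp53 (-1.01), Trp63 NM_001127261 (-1.11), Trp73 (-1.37), Mdm2 (1.097) and Ppm1d (0.93), Usp7 probe A_66_P136834 was at 0.18, Prl8a2 at -1.06, and 1808 probes were higher and 2913 lower, with 4 member probes higher, 3 lower, 3 kinases, 1 ubiquitin enzyme, 3 acetylation or methylation enzymes and 1 binding partner called.

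Leaving out each array in turn gave -0.83 to -0.49 for Trp53, 0.29 to 0.59 and -0.78 to -0.43 for the Trp63 probes of NM_011641 and NM_001127261, -1.10 to -0.74 for Trp73, 0.64 to 0.89 for Mdm2, 0.28 to 0.52 and -0.24 to 0.27 for the Mdm4 probes A_52_P485905 and A_55_P2081388, 0.53 to 0.84 for Ppm1d, -0.0582 to 0.18 and -0.17 to 0.0789 for the Usp7 probes A_55_P1970935 and A_66_P136834, 0.50 to 0.60 for Rchy1 and 0.92 to 1.11 for Ppp1r13l. It gave 258 to 2214 probes higher and 605 to 2647 lower, 0 to 5 member probes higher and 0 to 1 lower, 0 to 4 kinases, 0 to 1 ubiquitin enzymes, 0 to 5 acetylation or methylation enzymes, 0 to 2 binding partners and 18 to 22 targets. The highest counts of probes called were without hydroxyurea 2 and the lowest without hydroxyurea 4.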
